A study of Homo sapiens with 9 samples.

Results

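The TRAF adaptors and the kinase NIK were read as a group of 10 genes in RIVA cells carrying BCL10 S136X, BCL10 R58Q or empty vector. The members were TRAF1 to TRAF7, MAP3K14 (which encodes NIK), TRAF3IP2 and TANK, taken by gene name from a table of 60656 genes, and all 10 had enough reads to be tested. RIVA is an established cell line from a diffuse large B-cell lymphoma (DLBCL) of the activated B-cell-like class. Cells were infected with a lentiviral plvx-Tetone construct holding the BCL10 truncation S136X, the BCL10 missense mutant R58Q or no insert, and all groups received doxycycline for 24 h at 200 ng/mL (the sample characteristics list 200 ng/µL). All groups kept their own BCL10 gene, and the vector group is labelled BCL10 wild type. A group with added wild-type BCL10 was not analysed here, so the mutation and the added BCL10 cannot be told apart. RNA of 3 replicates per group was sequenced. The study calls them biologic replicates, but the labels do not say that they were separate infections, so p-values measure the spread between these libraries.

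TRAF proteins are adaptors that dock onto the cytoplasmic tails of TNF receptor family members, and onto complexes below Toll-like and IL-1 receptors, and pass the signal to kinases. TRAF2 and TRAF3, together with the ligases cIAP1 and cIAP2, keep NIK low by marking it for degradation. When receptors such as CD40 or the BAFF receptor draw TRAF3 away, NIK accumulates and drives processing of p100, the NFKB2 product, in the non-canonical NF-kB pathway. BCL10 works with MALT1 in the canonical pathway, in which MALT1 recruits TRAF6.

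Total counts ranged from 28047713 to 33122267 per library. BCL10 counts, which can include reads of the construct, were 885 to 1268 in vector, 9838 to 14293 in S136X and 10117 to 10596 in R58Q libraries. The B-cell markers MS4A1, CD79A, CD79B and PAX5 and all 4 markers of activated B-cell-like lymphoma (IRF4, TNFRSF13B, IL16 and ENTPD1) were above 1 CPM in every library, where CPM is the count relative to the TMM-scaled library total, on the usual scale of edgeR. The summed CPM of the 4 lymphoma markers was 832.7 to 949.8 in vector, 1324 to 1381 in S136X and 1272 to 1533 in R58Q libraries, and the part of this in the results below was not tested. IRF4 carried most of that sum, with mean CPM of 737.5, 1171 and 1247 for vector, S136X and R58Q, and ENTPD1 averaged 25.1, 62.0 and 50.9. TNFRSF13B averaged 56.1, 43.6 and 41.0 and IL16 57.8, 66.5 and 48.4, so the 4 markers did not move together. The 3 T-cell markers summed to at most 0.324 CPM and the 3 monocyte markers to at most 0.558 CPM. Of the 2 epithelial markers, EPCAM averaged 43.1 to 44.1 CPM in the 3 groups while KRT18 averaged below 1 CPM. The columns of the deposited table carry 1 date for vector and S136X and a later date for R58Q, so date and R58Q construct cannot be told apart in any value below that involves R58Q.

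The start regions of 3 members are shown, picked by their results below. TRAF1 rose, MAP3K14 stayed under the fold threshold, and TRAF3 did not pass the test. Whether these sequences have a part in that contrast was not tested. Each is the 250 bases before the start site in RefSeq on GRCh38.p14, written 5′ to 3′ on the strand of the gene, with a match to the 10-base kappaB consensus of NF-kB in capitals. TRAF1 lies on the minus strand at chr9:120929172-120929421, MAP3K14 on the minus strand at chr17:45317021-45317270, and TRAF3 on the plus strand at chr14:102777199-102777448.
TRAF1: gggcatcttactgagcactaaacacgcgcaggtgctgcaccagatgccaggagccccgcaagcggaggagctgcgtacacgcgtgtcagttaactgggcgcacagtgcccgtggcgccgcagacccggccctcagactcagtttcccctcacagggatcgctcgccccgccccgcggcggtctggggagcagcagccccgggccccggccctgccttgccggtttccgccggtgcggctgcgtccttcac
MAP3K14: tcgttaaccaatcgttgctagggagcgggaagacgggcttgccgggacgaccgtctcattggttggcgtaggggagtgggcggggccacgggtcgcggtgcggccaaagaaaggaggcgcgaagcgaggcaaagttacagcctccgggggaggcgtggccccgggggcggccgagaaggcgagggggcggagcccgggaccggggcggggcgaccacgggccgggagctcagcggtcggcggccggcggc
TRAF3: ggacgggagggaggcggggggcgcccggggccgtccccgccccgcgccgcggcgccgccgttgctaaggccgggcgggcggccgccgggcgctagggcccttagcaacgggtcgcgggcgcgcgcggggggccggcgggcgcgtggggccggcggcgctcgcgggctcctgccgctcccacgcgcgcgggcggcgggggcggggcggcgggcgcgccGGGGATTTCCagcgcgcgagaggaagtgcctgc
RefSeq start windows were found for all 10 members, 16 windows in all, each reaching 250 bases before to 50 bases after a start. Both strands were searched. The consensus was found in 1 of the 16 windows (6.25%), that of TRAF3, where GGGGATTTCC begins 33 bases before the start. Of all 35116 windows of this length, 5.91% held a match. None of the 3 TRAF1 windows did. A match is a description of the letters in a window, and its absence there says nothing of sites elsewhere.

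TRAF1 was the only member that passed both the p threshold and a 1.5-fold difference, and it did so in both mutants. TRAF1 (ENSG00000056558.11, minus strand, chr9:120902393-120929173 on GRCh38) has no overlapping gene in the table. The protein lacks the RING domain of the other TRAFs, pairs with TRAF2, and its gene is a well-known NF-kB target in B cells. The transcript had 57.6, 72.4 and 72.4 CPM in vector replicates 1 to 3. It had 142.1, 172.8 and 167.3 CPM in S136X replicates 1 to 3 and 411.1, 364.5 and 458.0 CPM in R58Q replicates 1 to 3. The 3 groups did not overlap, with every S136X library above every vector library and every R58Q library above both. In bulk RNA, a higher level per cell and a larger share of cells with the transcript cannot be told apart. The mean CPM was 67.5 ± 8.52 (SD, n = 3) for vector, 160.7 ± 16.4 for S136X and 411.2 ± 46.7 for R58Q.

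**Figure D1:**
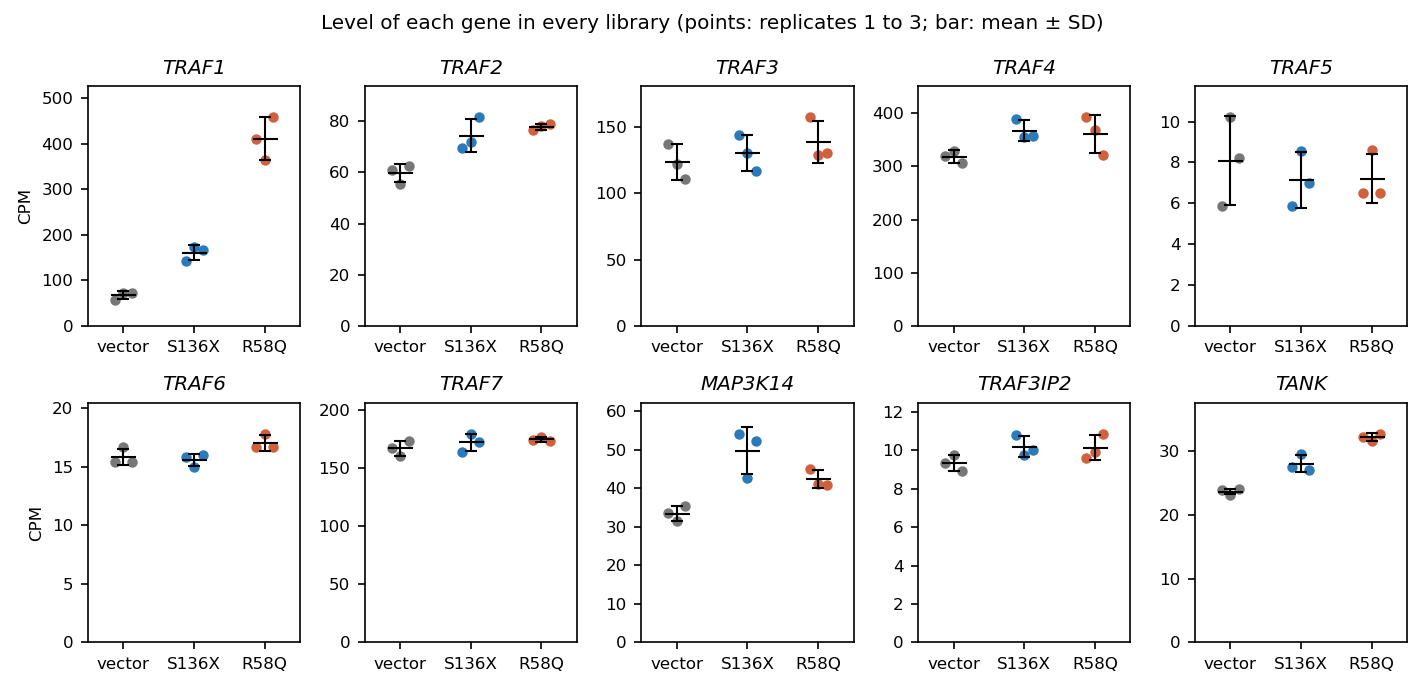
TMM-scaled CPM of each of the 10 genes, with 1 point per library for vector, S136X and R58Q and the mean ± SD over 3 replicates as black bars; every axis starts at 0. TRAF1 separates into 3 levels (67.5, 160.7 and 411.2 CPM on average), while the groups lie close together for TRAF3, TRAF5, TRAF6, TRAF7 and TRAF3IP2.

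A gene was called where edgeR's quasi-likelihood test gave a Benjamini-Hochberg adjusted p under 0.05 and the groups differed by 1.5-fold or more, the study's own fold. In S136X against vector, 1 of the 10 members was called, beside 3.87% of the 15530 genes tested (2.05% higher and 1.82% lower). In R58Q against vector 1 of 10 was called, beside 7.63% of 15435 genes (4.09% higher and 3.54% lower). In R58Q against S136X 1 of 10 was called, beside 0.434% of 15195 genes (0.27% higher and 0.165% lower). The called gene was TRAF1 each time, and a count of 1 in 10 is no result about the members as a group. Its log2 fold change was 1.25 in S136X (2.38-fold, standard error 0.108, edgeR adjusted p = 0.000414) and 2.61 in R58Q (6.09-fold, standard error 0.118, edgeR adjusted p = 1.87e-05). Ordered by log2 fold change, TRAF1 stood at place 143 of 15530 in S136X and at place 66 of 15435 in R58Q. Over 15 alternatives per comparison TRAF1 stayed called against vector, with a log2 fold change of 1.16 to 1.33 for S136X and 2.52 to 2.69 for R58Q.

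Between the mutants, TRAF1 was 2.54-fold higher in R58Q (log2 fold change 1.35, standard error 0.109, 95% interval 1.09 to 1.60, edgeR adjusted p = 0.00419), at place 50 of 15195. BCL10 itself was fitted lower in R58Q than in S136X, but did not pass the test (log2 fold change -0.31, edgeR adjusted p = 0.363). Its counts can include reads of the construct, and whether the BCL10 level bears on TRAF1 was not tested. The TRAF1 call was lost without S136X replicate 3 (log2 fold change 1.38, edgeR adjusted p = 0.0557), a fit in which 5 genes of the whole table were called. It held in the other 14 alternatives, including the one with a block for replicate number (log2 fold change 1.34, edgeR adjusted p = 6.46e-11).

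**Figure D2:**
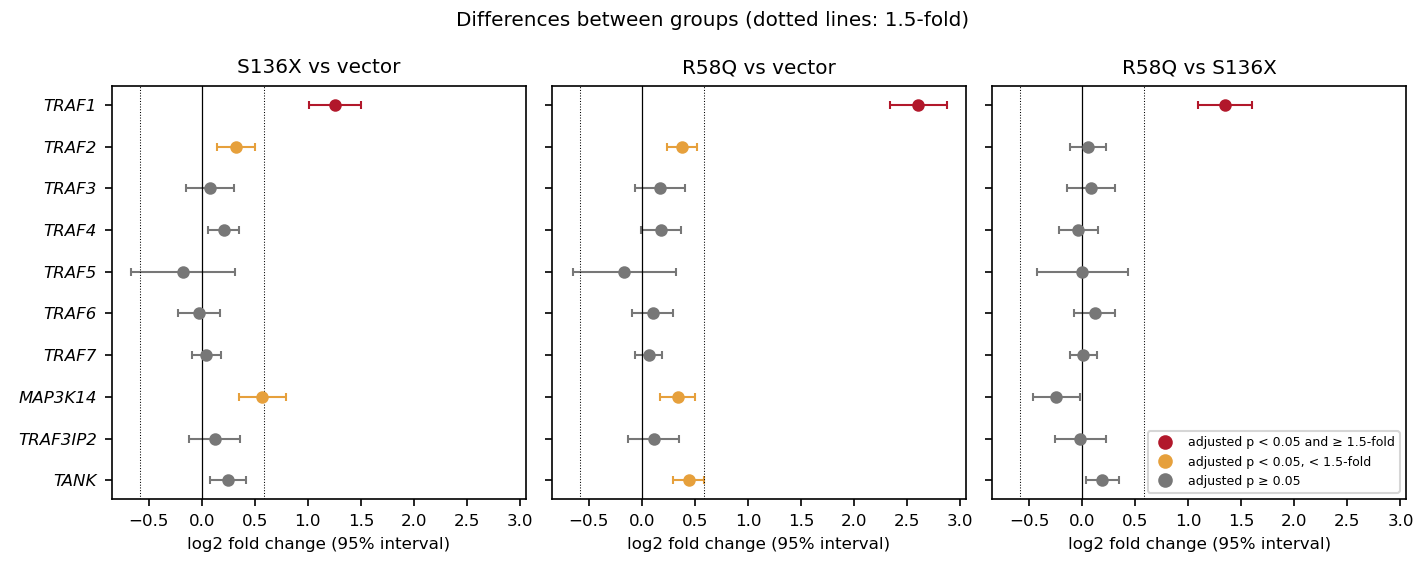
Log2 fold change of each gene in the 3 comparisons, with its 95% interval from edgeR as a horizontal bar, 1.5-fold as dotted lines and the outcome of the test in colour. TRAF1 is the one gene past both thresholds in each panel (1.25, 2.61 and 1.35), and TRAF2, MAP3K14 and TANK lie between 0 and 1.5-fold in R58Q with an adjusted p under 0.05.

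TRAF2, MAP3K14 and TANK had smaller differences that met the p threshold without reaching 1.5-fold. With the p threshold alone, 3 members passed in S136X (TRAF1, TRAF2 and MAP3K14), beside 10.1% of all genes, and 4 in R58Q (the same 3 and TANK), beside 21% of all genes. All of these were higher than in vector. In R58Q against S136X only TRAF1 passed, beside 0.533% of all genes. TRAF2 (ENSG00000127191.18, chr9:136881912-136926607) encodes a RING adaptor that works with cIAP1 and cIAP2. It had 60.8, 55.6 and 62.4 CPM in vector libraries, 69.6, 72.0 and 81.5 in S136X and 76.5, 78.0 and 78.8 in R58Q. Each mutant library was above each vector library, while the mutants overlapped. The log2 fold change was 0.32 in S136X (95% interval 0.14 to 0.50, edgeR adjusted p = 0.0368) and 0.38 in R58Q (0.24 to 0.52, edgeR adjusted p = 0.00503). The S136X value had an adjusted p under 0.05 in 8 of 15 alternatives and the R58Q value in all 15.

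MAP3K14 encodes NIK, whose protein is controlled largely by degradation rather than by transcript level. It had 33.5, 31.5 and 35.3 CPM in vector libraries, 54.2, 42.8 and 52.3 in S136X and 45.1, 41.1 and 40.8 in R58Q. Both mutant groups lay above vector and overlapped each other, with S136X replicate 2 below its other replicates and within the range of R58Q. The log2 fold change was 0.57 in S136X (1.49-fold, 95% interval 0.35 to 0.80, edgeR adjusted p = 0.00964), just under the fold threshold. It passed the threshold without vector replicate 3 (0.63, edgeR adjusted p = 0.0205) and without S136X replicate 2 (0.68, edgeR adjusted p = 0.00329). In R58Q the value was 0.34 (95% interval 0.17 to 0.50, edgeR adjusted p = 0.015). The direct difference of R58Q from S136X was -0.24 (95% interval -0.46 to -0.02, edgeR adjusted p = 0.407), and when replicate number was added to the fit as a block it was -0.24 with an edgeR adjusted p of 0.00824.

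The last bases of MAP3K14 overlap MAP3K14-AS1, a long non-coding RNA on the opposite strand. MAP3K14 (ENSG00000006062.17, minus strand) spans chr17:45263119-45317029 as the deposited table lists it, and 6706 bases of this span are shared with MAP3K14-AS1. How the counting used strand is not given in the sources used here, so reads over the shared part could count for either gene. MAP3K14-AS1 had 168 to 300 counts per library, against 1030 to 1585 for MAP3K14. Its fitted level was lower with S136X (log2 fold change -0.35, edgeR adjusted p = 0.126) and with R58Q (log2 fold change -0.35, edgeR adjusted p = 0.0872). The antisense gene thus lay on the other side of 0 from MAP3K14, and neither of its values passed the test.

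TANK (ENSG00000136560.14, chr2:161136908-161236230) encodes an adaptor that links TRAFs to the kinases TBK1 and IKKε. It had 23.9, 23.2 and 24.0 CPM in vector libraries, 27.6, 29.6 and 27.1 in S136X and 32.3, 31.6 and 32.8 in R58Q. The 3 groups did not overlap and were tight, with a SD of at most 1.31 CPM. The log2 fold change was 0.25 in S136X (95% interval 0.08 to 0.41, edgeR adjusted p = 0.0693) and 0.44 in R58Q (0.29 to 0.59, edgeR adjusted p = 0.00308). The direct difference was 0.19 (0.03 to 0.34, edgeR adjusted p = 0.348). With the replicate block the adjusted p from edgeR was 0.0291 for S136X and 0.0339 for the direct difference.

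The remaining 6 members did not meet the p threshold in any of the 3 comparisons. TRAF3 (ENSG00000131323.16, chr14:102777449-102911500) encodes the adaptor that holds NIK for degradation and is often inactivated in B-cell cancers. It had 137.4, 122.3 and 110.5 CPM in vector libraries, 143.7, 130.2 and 116.5 in S136X and 157.1, 128.8 and 130.3 in R58Q. Replicate 1 was the highest of each group, and the groups overlapped. The 95% intervals of its log2 fold change ran from -0.15 to 0.30 in S136X and from -0.07 to 0.40 in R58Q, which leave out a change of 1.5-fold either way. With the replicate block the R58Q value was 0.17 with an edgeR adjusted p of 0.0359.

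TRAF6 (ENSG00000175104.15, chr11:36483769-36510272) encodes the ligase adaptor that MALT1 recruits below BCL10. It had 15.4 to 16.7 CPM in vector libraries, 15.01 to 15.998 in S136X and 16.6 to 17.8 in R58Q. Its 95% intervals were -0.22 to 0.18 in S136X and -0.09 to 0.29 in R58Q. TRAF6 transcript therefore differed from vector by less than 1.5-fold by these intervals. Of the 31-base words of its longest GENCODE transcript, 8.72% also occur in other genes, the pseudogene TRAF6P1 among them. A part of its reads could therefore be split. The words are shorter than the study's reads, so the share of reads affected is not known from them.

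TRAF4 (ENSG00000076604.15, chr17:28744005-28750956) encodes an adaptor better known from epithelial tissue. It had 319.0, 329.8 and 306.4 CPM in vector libraries, 390.0, 355.4 and 356.9 in S136X and 392.4, 369.1 and 322.1 in R58Q. Every S136X library was above vector, while R58Q replicate 3 fell within the vector range. Its log2 fold change was 0.21 in S136X (edgeR adjusted p = 0.0775) and 0.18 in R58Q (edgeR adjusted p = 0.146), and with the replicate block the edgeR adjusted p was 0.0152 and 0.038. TRAF7 (ENSG00000131653.13, chr16:2155698-2178129) carries WD40 repeats in place of the TRAF domain. It had 160.9 to 173.7 CPM in vector libraries, 164.4 to 179.7 in S136X and 173.6 to 177.4 in R58Q. Its log2 fold change was 0.04 and 0.06, though the sign turned in S136X with total counts only (-0.011) and in R58Q with upper-quartile scaling (-0.0012). The last 950 bases of TRAF7 overlap CASKIN1, which had 102 to 185 counts per library against 4813 to 5902 for TRAF7.

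TRAF5 and TRAF3IP2 were the least abundant. TRAF5 (ENSG00000082512.15, chr1:211326615-211374946) encodes an adaptor that signals below CD40 and CD27. It had 5.85 to 10.2 CPM in vector libraries, 5.88 to 8.56 in S136X and 6.50 to 8.62 in R58Q. Its groups overlapped throughout, and replicate 2 was the highest in each. The 95% intervals of -0.67 to 0.31 in S136X and -0.65 to 0.32 in R58Q were the widest of the 10 members and include a fall of 1.5-fold. TRAF3IP2 (ENSG00000056972.20, chr6:111555381-111606906) encodes Act1, the adaptor of the IL-17 receptors. It had 8.95 to 9.78 CPM in vector libraries, 9.77 to 10.8 in S136X and 9.60 to 10.9 in R58Q, with 95% intervals of -0.12 to 0.36 and -0.13 to 0.35. The antisense gene TRAF3IP2-AS1 shares 42922 bases of its span, with 65 to 126 counts per library. Of the 31-base words of the longest TRAF3IP2 transcript, 10.1% also occur in other genes.

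Among all 10 members, 5 had S136X libraries that did not overlap vector, all higher, beside 31.3% of all genes (16% higher and 15.4% lower). In R58Q 4 did so, all higher, beside 40.3% of all genes (21.1% higher and 19.2% lower). In R58Q against S136X 3 did so (TRAF1, TRAF6 and TANK), all higher, beside 17% of all genes (9.45% higher and 7.57% lower). By fit, 8 members were higher in S136X, 9 in R58Q and 7 in R58Q against S136X, beside 46.9%, 46.4% and 50.7% of all genes. The median log2 fold change over the members was 0.16 in S136X and 0.17 in R58Q, against -0.02 and -0.03 over all genes tested. The vector libraries are shared by both comparisons.

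The make-up of TRAF transcripts was compared per length, as CPM per kb of merged exons, since longer genes collect more reads. In vector the order was TRAF4 (69.3 ± 2.55 CPM per kb, SD, n = 3), TRAF7 (37.3 ± 1.42), TRAF2 (16.3 ± 0.968), TRAF3 (14.9 ± 1.63), TRAF1 (10.5 ± 1.32), MAP3K14 (5.78 ± 0.335), TANK (4.25 ± 0.0823), TRAF6 (3.25 ± 0.146), TRAF3IP2 (1.43 ± 0.0635) and TRAF5 (0.897 ± 0.242). Only TRAF2 and TRAF3 overlapped among neighbours in that order. TRAF1 moved from place 5 in vector to place 3 in S136X (24.9 ± 2.54 CPM per kb), where it overlapped TRAF2. In R58Q it held place 2 (63.8 ± 7.25 CPM per kb), where it overlapped TRAF4 (78.6 ± 7.79). With the length of the longest transcript in place of merged exons, TRAF1 held places 6, 4 and 2 in vector, S136X and R58Q. TANK then held place 5 in vector (10.9 CPM per kb), above TRAF1 (10.7), and stood above MAP3K14 in every group. The order thus depends in part on the length taken, and the SDs cover only the spread between libraries.

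**Figure D3:**
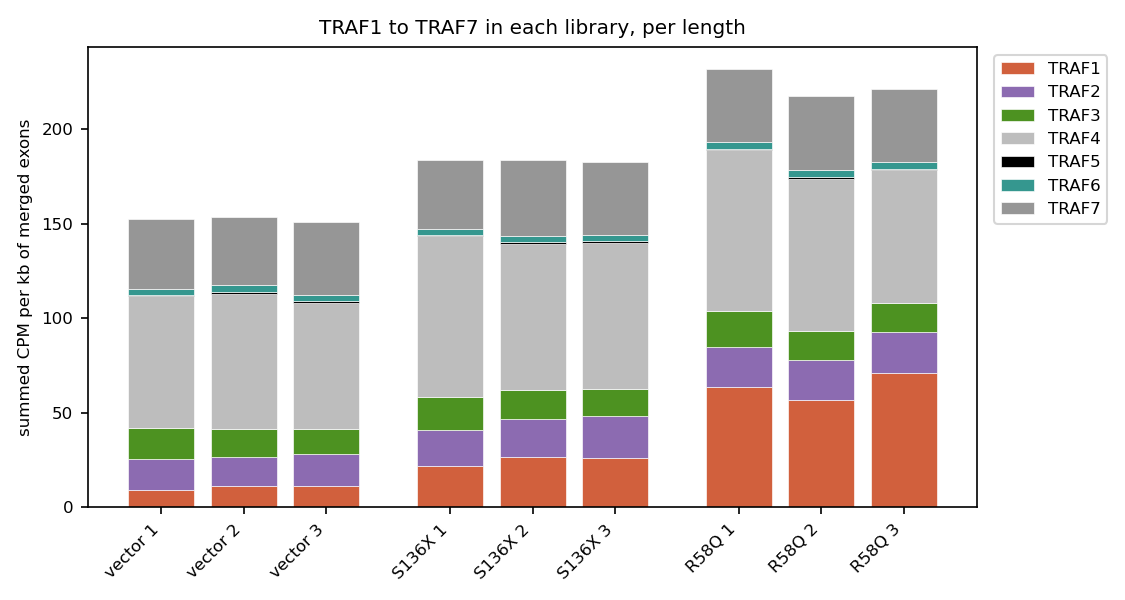
CPM per kb of merged exons of TRAF1 to TRAF7, stacked for each of the 9 libraries; the axis starts at 0. The stack grows from about 152.4 in vector to 183.3 in S136X and 223.7 in R58Q on average, and the TRAF1 segment takes 6.87%, 13.6% and 28.5% of it.

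TRAF1 made up 5.85%, 7.32% and 7.43% of the summed TRAF1 to TRAF7 CPM per kb in vector replicates 1 to 3. The share was 11.99%, 14.6% and 14.2% in S136X and 27.5%, 25.9% and 32.1% in R58Q. A share within a library does not depend on how libraries were scaled, but it does depend on gene length. With longest transcripts the shares averaged 5.03%, 10.1% and 22.2% in vector, S136X and R58Q, again without overlap. The sum of the other 6 TRAFs was 141.9 ± 1.96 CPM per kb in vector, 158.4 ± 2.95 in S136X and 159.9 ± 9.11 in R58Q. The ratio of TRAF1 to its partner TRAF2, per length and within each library, was 0.646 ± 0.101 in vector, 1.23 ± 0.116 in S136X and 3.003 ± 0.326 in R58Q. The ratio depends on the length taken for TRAF2, which has 3663 bases of merged exons and 2264 in its longest transcript. With longest transcripts it was 0.407 ± 0.0635 in vector, 0.775 ± 0.0729 in S136X and 1.89 ± 0.206 in R58Q. TRAF1 was thus below TRAF2 in each vector library and above it in each R58Q library by both lengths, while S136X lay above 1 by merged exons and below 1 by longest transcripts.

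The ratio of MAP3K14 to TRAF3 sets the kinase against the adaptor that holds it for degradation. In counts within a library it was 0.244, 0.257 and 0.320 in vector, 0.377, 0.329 and 0.449 in S136X and 0.287, 0.319 and 0.313 in R58Q. All S136X libraries were above all vector libraries, the closest being 0.329 and 0.320, while the R58Q libraries lay inside the vector range. No test was made of these ratios.

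The profile of TRAF1 over the 9 libraries was closest to those of MIR155HG, AC016831.1 and CEBPD among 15859 other genes, by the Euclidean distance of log2 CPM centred on each gene's mean (0.472, 0.645 and 0.662). MIR155HG, the host gene of miR-155, averaged 11.2 CPM in vector libraries, 29.7 in S136X and 60.6 in R58Q. CEBPD, a leucine zipper transcription factor, averaged 0.786, 2.23 and 4.45 CPM, and AC016831.1, a non-coding RNA gene, 0.249, 0.846 and 1.67 CPM. These genes were picked for their closeness to TRAF1 over the same 9 libraries. Their shared order of vector, S136X and R58Q therefore follows from the selection and is no separate result. AC016831.1 and CEBPD were also low in vector libraries, at 0.249 and 0.786 CPM.

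The other genes of the pathway were read from a list of 51 partners of the TRAFs and NIK, of which 46 had enough reads in each comparison. In S136X against vector 7 rose and 2 fell, and 37 were not called. In R58Q 13 rose and 1 fell, and 32 were not called. In R58Q against S136X 4 of 46 rose (CD40, LTA, TNF and BIRC2), beside 0.434% of all genes, and none of the 4 was called without S136X replicate 3. The calls were 9 of 46 and 14 of 46 against vector, beside 3.87% and 7.63% of all genes, and the median log2 fold change of the list was 0.11 in S136X and 0.28 in R58Q. Since the list was written with earlier results of these data known, the counts are a description.

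**Figure D4:**
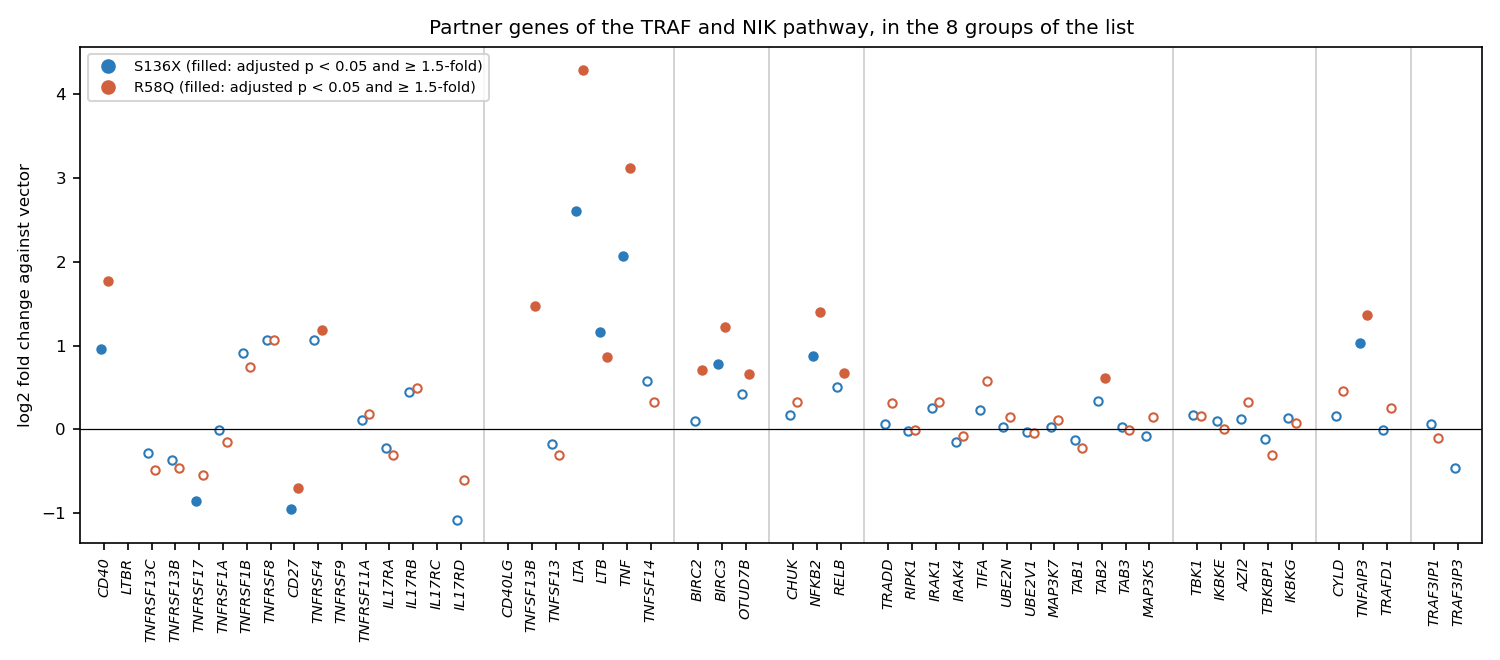
Log2 fold change against vector of the partner genes, in the order and 8 groups of the list, with S136X in blue and R58Q in orange, filled where called and open where not; genes without a point had too few reads. Ligands and the NIK turnover and downstream groups hold most filled points, up to 4.30 for LTA in R58Q, while of the TRAF2 and TRAF6 signalling partners only TAB2 is filled (0.61 in R58Q) and no TANK partner is.

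Of the genes next to NIK, the cIAP2 gene BIRC3 rose by 0.78 on the log2 scale with S136X (edgeR adjusted p = 0.00184) and by 1.22 with R58Q (edgeR adjusted p = 0.000139). The cIAP1 gene BIRC2 rose in R58Q (0.71, edgeR adjusted p = 0.000362) and was 0.10 in S136X (edgeR adjusted p = 0.478). The mutants differed directly in BIRC2 by 0.60 (edgeR adjusted p = 0.0242), a call that held in 10 of 15 alternatives in all. Among the fits with 1 library left out, it was lost without S136X replicates 1 or 3 and without R58Q replicates 1 or 3. NFKB2, the precursor of p52, rose by 0.87 with S136X (edgeR adjusted p = 0.000346) and by 1.40 with R58Q (edgeR adjusted p = 4.75e-05), both log2. RELB, the partner of p52, rose in R58Q (0.68, edgeR adjusted p = 0.000598) and stayed under 1.5-fold in S136X (0.51, edgeR adjusted p = 0.00797). CHUK encodes IKKα, the kinase that NIK phosphorylates, and was not called (0.17 and 0.32, edgeR adjusted p = 0.192 and 0.0125). OTUD7B, a deubiquitinase of TRAF3, was called in R58Q (0.66, edgeR adjusted p = 0.0302), but not without vector replicates 2 or 3 or R58Q replicates 1 or 3, each left out alone.

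Of 13 tested receptors that recruit TRAFs, CD40 rose in both mutants (log2 fold change 0.96 and 1.77, edgeR adjusted p = 0.000127 and 1.96e-05). CD40 went from 146.4 ± 8.46 CPM (SD, n = 3) in vector to 283.8 ± 7.74 in S136X and 500.3 ± 44.5 in R58Q. CD27, a receptor of memory B cells, fell by 0.95 and 0.70 on the log2 scale (edgeR adjusted p = 0.00441 and 0.00408), the R58Q call being lost without vector replicate 1. TNFRSF17, the BCMA gene, fell by 0.86 in S136X (edgeR adjusted p = 0.00712) and was -0.54 in R58Q (edgeR adjusted p = 0.0138). TNFRSF4, the OX40 gene, rose in R58Q (1.19, edgeR adjusted p = 0.015), not called without vector replicate 2 or 3, and was 1.07 in S136X (edgeR adjusted p = 0.0535). With the replicate block TNFRSF4 was called in S136X too (1.05, edgeR adjusted p = 0.00272), as in 5 of 15 alternatives in all. The block also called 3 receptors that are named here after their values were seen. TNFRSF1B and TNFRSF8 were higher in S136X (0.88 and 1.03, edgeR adjusted p = 0.0203 and 0.0438) and in R58Q (0.71 and 1.06, edgeR adjusted p = 0.0324 and 0.0207). IL17RD was lower in S136X (-1.10, edgeR adjusted p = 0.0154). Without the block, the edgeR adjusted p for TNFRSF1B and TNFRSF8 was 0.0683 and 0.133 in S136X and 0.0858 and 0.0566 in R58Q. For IL17RD in S136X it was 0.0731. Of 15 alternatives, TNFRSF1B was called in 4 in S136X and 3 in R58Q, TNFRSF8 in 2 and 4, and IL17RD in 3 in S136X. TNFRSF8 had only 12 to 16 counts per vector library, and IL17RD only 14 to 29 per S136X library. Receptors therefore moved both ways, and the median of the group was -0.01 in S136X and -0.16 in R58Q.

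Of the ligands, LTA, LTB and TNF rose in both mutants. LTA, which encodes lymphotoxin-α, rose by 2.61 with S136X and 4.30 with R58Q on the log2 scale (edgeR adjusted p = 1.75e-06 and 1.22e-05). TNF rose by 2.07 and 3.12 (edgeR adjusted p = 2.64e-06 and 1.76e-05). LTB, which pairs with LTA to form the ligand of LTBR, rose by 1.17 and 0.87 (edgeR adjusted p = 0.000829 and 0.000755). TNFSF13B, the BAFF gene, had only 3 to 8 counts per vector library, 8 to 14 per S136X library and 12 to 15 per R58Q library. Its call in R58Q (log2 fold change 1.47, edgeR adjusted p = 0.0408) rests on these few reads and remained in 1 of the 6 fits that each left out 1 library. CD40LG and the receptor gene LTBR had too few reads to be tested.

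Among the signalling partners, TAB2, which couples TRAF6 to the kinase TAK1, rose in R58Q (log2 fold change 0.61, edgeR adjusted p = 0.00158). The call was lost without R58Q replicate 3, with upper-quartile scaling and with total counts only, and S136X was 0.34 (edgeR adjusted p = 0.0281). TIFA, an adaptor that binds TRAF6, lay at the fold threshold in R58Q (0.58, edgeR adjusted p = 0.0012). It was not called there, but it was with the replicate block (0.59, edgeR adjusted p = 5.51e-05) and in 9 of 15 alternatives in all. TIFA was named after its values were seen. With TIFA, the other 11 signalling partners and all 5 TANK partners, TBK1 and IKBKE included, were not called in either mutant. TNFAIP3, the A20 gene, rose in both (1.03 and 1.36, edgeR adjusted p = 0.000278 and 0.000141), while CYLD and TRAFD1 were not called.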

How the data were processed

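The deposited table holds, for 9 libraries, the read counts of each gene and a normalized signal, which by its values is the count divided by 1 factor per library. Polyadenylated RNA was sequenced from 1 end on an Illumina NovaSeq, with the reads of 2 runs joined for each library. The signal was not used. The submitters' processing notes name cutadapt, STAR, Picard and hg38. The counting program, its strand setting and the annotation are not given in the sources used here.

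Tests were run with edgeR 4.0.16 (R 4.3.3). For each comparison the 6 libraries concerned were filtered with filterByExpr (10 counts, 15 in total), scaled by TMM and tested by quasi-likelihood, and p-values were adjusted by Benjamini-Hochberg over every gene tested. The standard error was taken as the absolute log2 fold change over the square root of F, and 95% intervals use the t distribution with the fit's total degrees of freedom. Levels are CPM with TMM factors over 9 libraries. Profiles were compared on log2 CPM with a prior count of 2. Lengths are from GENCODE release 29 (GRCh38), matched by Ensembl identifier. The spans of TRAF3, TRAF4, TRAF6, MAP3K14, TRAF3IP2 and TANK in the deposited table differ from that release. TRAF6, for one, begins at base 36483769 in the table and at 36487027 in release 29. Values per kb do not allow for such differences. The procedures were tested on simulated data.

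Alternatives were DESeq2 1.42.0, limma-voom (limma 3.58.1), 3 other scalings, 2 other filters, 1 fit of all 9 libraries, the replicate number as a block, 2 other thresholds and each replicate left out. Replicate pairs within a group gave chi-square values of 7.91 to 25.6 per degree of freedom, beyond the noise of sampling. Deviations from the group mean of libraries with the same replicate number correlated at 0.143 to 0.626 over 9 pairs (median 0.425). Libraries with different numbers gave -0.459 to 0.169 over 18 pairs (median -0.251). Deviations from a group mean cancel out within the group, so the 2 kinds of pair offset each other and the negative median is no separate result. By the same-number values, replicates of the same number shared a part of their spread, least for vector replicate 2 (0.143 with S136X and 0.163 with R58Q). No label says what a number marks. The reported tests have no block, and the blocked value stands beside a result where it changes a call.

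The members, the partner list and the tests were chosen with earlier results of these data known. The genes set to be named were the 10 members, the partners called against vector and the 3 genes closest in profile to a called member. BIRC2, BIRC3, CHUK, NFKB2, RELB and CD40 were to be named whatever their result. Of the genes that overlap a member, only MAP3K14-AS1, TRAF3IP2-AS1 and CASKIN1 are named. BCL10, the cell markers, CYLD, TRAFD1, TBK1, IKBKE, CD40LG, LTBR, TIFA, TNFRSF1B, TNFRSF8 and IL17RD are named as well.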

Additional observations from a re-analysis of the deposited data

Results flagged for a closer look

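When R58Q was set directly against S136X, 1 of 10 members and 5 of 46 tested partners differed at an adjusted p under 0.05. The test was edgeR's quasi-likelihood test, and 0.533% of all 15195 genes passed the same threshold. All of the named genes were higher in R58Q, whose libraries carry the later date. Since the partner list was written with earlier results of these data known, the counts are a description. The log2 differences were 1.35 for TRAF1 (adjusted p = 0.00419), 0.81 for CD40 (adjusted p = 0.00634), 1.68 for LTA (adjusted p = 0.00419), 1.05 for TNF (adjusted p = 0.0138), 0.60 for BIRC2 (adjusted p = 0.0242) and 0.52 for NFKB2 (adjusted p = 0.0406), the last of which is under 1.5-fold. Without S136X replicate 3, TRAF1, CD40, LTA, TNF and BIRC2 were not called. TNF was also not called without S136X replicate 2 or R58Q replicate 3, and BIRC2 without S136X replicate 1 or R58Q replicates 1 or 3, each left out alone. The BIRC2 call held in 10 of 15 alternatives in all. With 3 libraries in a group, single libraries that stand apart from their group were not sought.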

How the results depend on the processing

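Of 450 alternative values of the members' log2 fold changes, 430 kept their sign and their side of the thresholds. The replicate block changed no member's call at both thresholds, with a log2 fold change for TRAF1 of 1.26 in S136X and 2.61 in R58Q. With the block the partners called were 13 of 46 in S136X, with TNFRSF4, TNFRSF1B, TNFRSF8 and IL17RD added. They were 17 of 46 in R58Q, with TNFRSF1B, TNFRSF8 and TIFA added, and 4 of 46 in the direct comparison. Over all genes the block called 1014 of 15530 in S136X, 1646 of 15435 in R58Q and 446 of 15195 in the direct comparison. Without the block these were 601, 1178 and 66. Members called ranged from 1 to 2 in S136X, stayed at 1 in R58Q and ranged from 0 to 1 in the direct comparison when 1 library was left out. The same ranges for the partners were 9 to 13, 11 to 16 and 0 to 4. With no fold threshold, 3 of 10 members and 13 of 46 tested partners passed in S136X, beside 10.1% of all genes. In R58Q 4 of 10 members and 25 of 46 tested partners passed, beside 21% of all genes. At an adjusted p under 0.01 and 1.5-fold, 2 partners passed in the direct comparison, beside 15 of all 15195 genes.

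Signs turned only for values that were not called. TRAF7 was -0.011 in S136X with total counts only, and with upper-quartile scaling it was -0.0012 in R58Q and -0.0052 in the direct comparison, where TRAF5 was -0.014. Leaving out 1 library, TRAF5 ranged from -0.35 to 0.028 in S136X, -0.34 to 0.041 in R58Q and -0.14 to 0.16 in the direct comparison, and TRAF6 from -0.030 to 0.019 in S136X. In the direct comparison TRAF3 ranged from -0.010 to 0.16, TRAF4 from -0.093 to 0.039, TRAF7 from -0.019 to 0.046 and TRAF3IP2 from -0.073 to 0.027. The cause was not tested. Over all genes, calls ranged from 262 to 1574 in S136X (601 as reported, 1014 with the block), from 596 to 3243 in R58Q (1178, 1646 with the block) and from 5 to 446 in the direct comparison (66, 446 with the block). The direct count was 5 without S136X replicate 3. Without vector replicate 2 the counts were 279 in S136X and 719 in R58Q.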
